A study of Mus musculus with 18 samples.

Results

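Alpha-defensins are small antimicrobial peptides with 3 disulfide bridges that Paneth cells, the granule-filled secretory cells at the base of the small intestinal crypt, store and release into the crypt lumen. They are made as precursors, and in the mouse the metalloproteinase matrilysin (Mmp7) cuts the precursor to the active peptide. The mouse genome holds many copies of the gene in 1 cluster, and the copies differ by few bases. The 10 genes described here, Defa3, Defa5, Defa17, Defa20, Defa21, Defa22, Defa23, Defa24, Defa26 and Defa30, were taken by name from the 55335 rows of the deposited count table, and all 10 were among the 21349 genes with enough counts to be tested. A further 29 rows have names that begin with Defa, of which 21 were tested.

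The libraries were made from purified small intestinal crypts of mice aged 8 to 12 weeks, with 3 mice in each of 6 groups. KO mice were PRMT1 fl/fl;Vil-CreERT2, in which tamoxifen activates a Cre recombinase that the villin promoter drives in the intestinal epithelium, and WT mice were PRMT1 fl/fl littermates without Cre, so both carried the LoxP-flanked Prmt1 gene. All mice, WT included, were injected with 2 mg tamoxifen per day, and crypts were collected 2 days after the first injection (2 injections given) or 7 and 14 days after it (5 injections given). Both sexes were used, and per the study KO and WT mice were matched for age and sex. The labels do not give the sex of each mouse, and no sex term was fitted. Because Cre is driven by villin, Prmt1 is targeted in all epithelial lineages and not in Paneth cells alone. Each library held 12844642 to 31493484 counted fragments, and the level of Prmt1 itself was 13.1 to 17.4 CPM (counts scaled to the TMM-adjusted library size) in the 9 KO libraries and 20.2 to 30.6 CPM in the 9 WT libraries. Paneth cell RNA was present in all groups, since lysozyme (Lyz1) was measured at 751 to 9747 CPM and intelectin (Itln1) at 165 to 2736 CPM.

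The 10 genes lie on chromosome 8 of mm10 (GRCm38), all on the + strand, from Defa21 (21025545 to 21026516) to Defa24 (21734494 to 21735471). Each is annotated as a protein-coding gene of 2 exons, with a spliced transcript of 372 to 425 bases and a coding sequence of 282 bases, or 288 bases in Defa20. The last 108 coding bases, which encode most or all of the mature peptide, hold 6 cysteine codons in every gene. They are shown for 6 members because they make visible how little separates copies whose read counts were compared; capitals mark the bases that differ from Defa24, the most abundant member, and the sequences are those of the GENCODE transcripts on GRCm38, 5′ to 3′.
Defa24: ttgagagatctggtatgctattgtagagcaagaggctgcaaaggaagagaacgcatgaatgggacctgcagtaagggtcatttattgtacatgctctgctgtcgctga
Defa30: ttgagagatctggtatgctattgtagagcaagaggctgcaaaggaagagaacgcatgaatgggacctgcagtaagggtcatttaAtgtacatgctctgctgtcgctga
Defa23: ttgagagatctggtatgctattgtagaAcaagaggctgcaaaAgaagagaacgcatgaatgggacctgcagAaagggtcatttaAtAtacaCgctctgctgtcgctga
Defa3: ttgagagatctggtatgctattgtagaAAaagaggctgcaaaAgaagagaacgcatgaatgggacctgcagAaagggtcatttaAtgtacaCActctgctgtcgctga
Defa17: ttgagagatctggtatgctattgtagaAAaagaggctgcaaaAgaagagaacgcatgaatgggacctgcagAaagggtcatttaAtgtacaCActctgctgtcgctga
Defa26: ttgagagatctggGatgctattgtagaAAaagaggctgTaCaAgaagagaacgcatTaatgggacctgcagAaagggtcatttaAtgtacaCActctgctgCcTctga
Defa30 differed from Defa24 at 1 of these bases, Defa23 at 6, Defa3 and Defa17 at 7 and Defa26 at 13. Over the whole coding sequence Defa3 and Defa17 were identical.

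Defa21 and Defa22 form a separate pair that differs at 2 coding bases, 1 of them in the last 108 bases, and capitals mark that base.
Defa21: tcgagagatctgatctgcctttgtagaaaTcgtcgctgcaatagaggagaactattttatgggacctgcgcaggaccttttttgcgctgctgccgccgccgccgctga
Defa22: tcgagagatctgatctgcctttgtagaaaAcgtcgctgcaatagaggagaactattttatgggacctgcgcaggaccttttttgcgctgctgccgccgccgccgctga
Against Defa24 these ends differed at 41 and 40 bases.

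How much of a gene can be counted depends on how much of it is shared, because fragments that align to several places were not counted. Of all stretches of 100 bases, the read length, in the spliced transcript, the share that also occurs in the transcript of another gene was 0% for Defa24, 0.334% for Defa30 and 1.10% for Defa26. It was 40.4% for Defa21 and 40.3% for Defa22, which share only with each other. It was 86.8% for Defa3, 88.1% for Defa5, 89.1% for Defa23, 90.6% for Defa17 and 99.7% for Defa20. The low levels given here for Defa3, Defa5, Defa17, Defa20 and Defa23 are therefore of the fragments that could be placed, and levels are not a measure of how much of each peptide's mRNA the crypts held. Comparisons of the same gene between groups use the same countable part in each library.

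Promoter sequence from RefSeq (GRCm38.p6, 250 bases before to 50 after the gene's start) was at hand for 5 members, Defa20, Defa21, Defa22, Defa23 and Defa30. The windows of Defa21 and Defa22 were identical over all 300 bases, and that of Defa20 was 97.7% identical to them. The stretch from 150 to 21 bases before the start is shown for 3 members that differ in it, since these genes moved together; capitals mark TATAAA and TCAAAG, the latter a core that TCF/LEF factors, the DNA-binding partners of beta-catenin, recognise. All are read 5′ to 3′ on the + strand.
Defa21 at chr8:21025395-21025524: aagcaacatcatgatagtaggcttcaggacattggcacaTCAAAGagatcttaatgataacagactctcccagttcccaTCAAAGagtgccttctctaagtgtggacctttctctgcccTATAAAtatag
Defa23 at chr8:21054890-21055019: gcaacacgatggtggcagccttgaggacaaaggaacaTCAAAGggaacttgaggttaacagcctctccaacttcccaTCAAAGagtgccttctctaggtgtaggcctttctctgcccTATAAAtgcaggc
Defa30 at chr8:21134500-21134629: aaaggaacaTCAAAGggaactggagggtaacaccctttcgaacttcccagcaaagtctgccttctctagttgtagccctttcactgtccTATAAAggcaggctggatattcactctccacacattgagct
Each motif named here was searched on both strands. TATAAA occurred in 5 of 5 members and in 13.6% of 32851 promoters, and TCAAAG in 5 of 5 and in 5257 of the 32851, with 2 copies in Defa20, Defa21, Defa22 and Defa23 and 1 in Defa30. The E-box CAGCTG occurred in 0 of 5 members and in 16.3% of all promoters. The letters AGATAA, a core bound by GATA family factors, were also found in 0 of 5 members, and in 11.2% of all promoters. Of 11 other genes named Defa with a promoter entry, 10 held TATAAA and 8 held TCAAAG. A match describes these letters only, and no binding was measured.

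Per length, as FPKM (CPM divided by the table's gene length in kilobases), Defa24 was the highest of the 10 genes in all 6 groups, with 963 to 15921 FPKM over the 18 libraries. Defa30 was second in all groups, at 428 to 6597 FPKM. Defa21 and Defa22 followed at 264 to 3912 and 259 to 3812 FPKM, and their order changed between groups. Defa17 (46.3 to 926 FPKM) and Defa5 (44.5 to 548 FPKM) came next in every group, Defa26 (10.6 to 265 FPKM) and Defa20 (13.2 to 192 FPKM) followed in either order, Defa3 stood below them (6.51 to 142 FPKM) and Defa23 last (3.03 to 50.5 FPKM). Ranges of neighbours in this order overlapped, and the order is that of countable fragments. Together the 10 genes took 0.0790% to 1.32% of all counted fragments of a library.

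**Figure D1:**
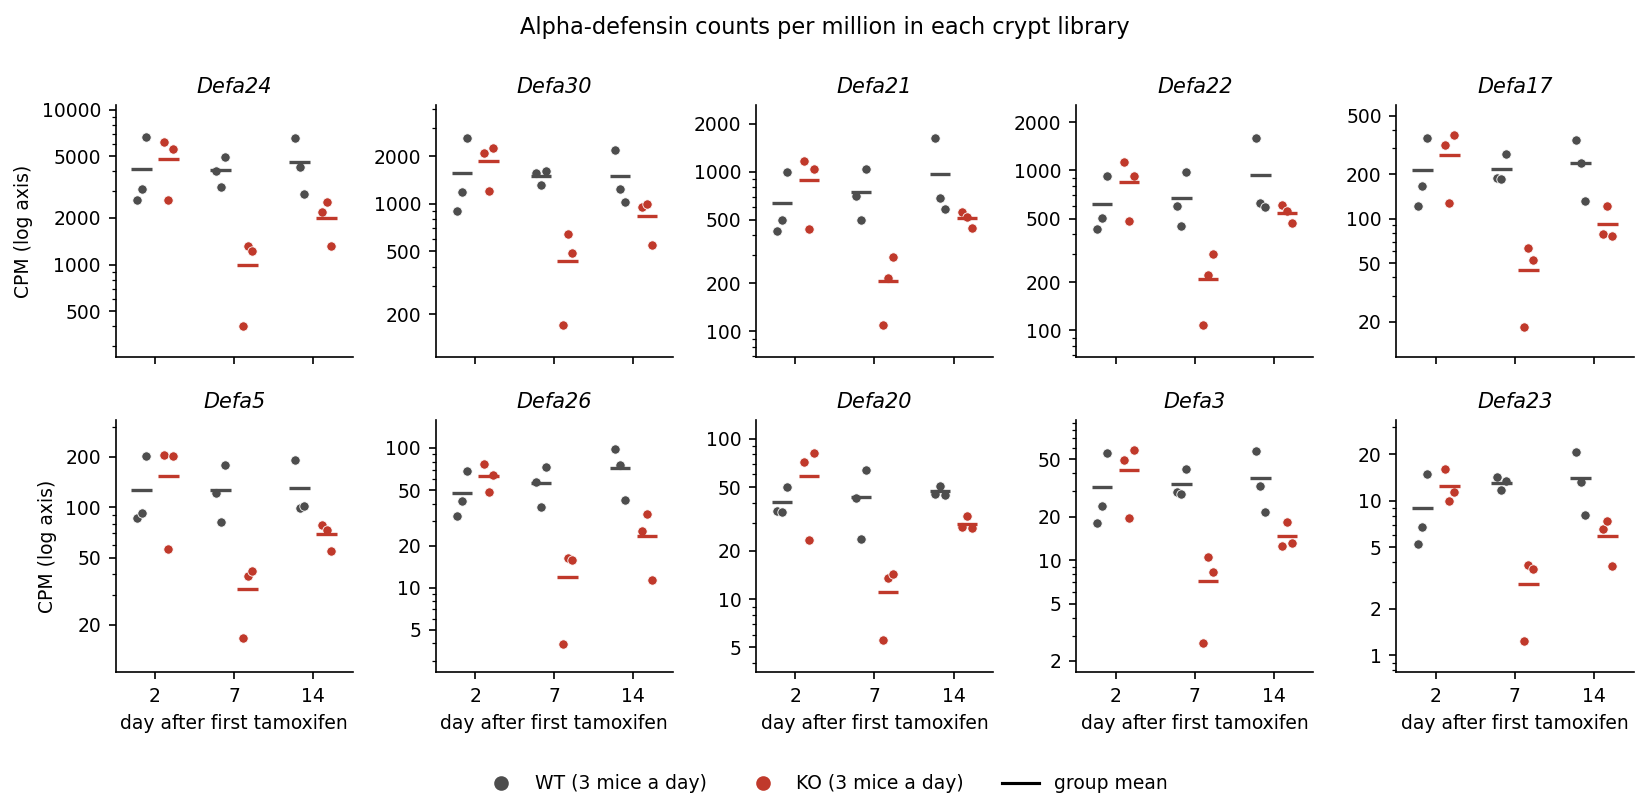
CPM of each alpha-defensin in each of the 18 libraries (log axis, 1 panel per gene, ordered by mean FPKM) against the day after the first tamoxifen injection; points are mice, and bars are group means of 3 mice. In all 10 panels the 3 KO points of day 7 lie below the 3 WT points of that day.

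The first comparison asks whether crypts lose alpha-defensin mRNA when PRMT1, an enzyme that methylates arginines in histones and other proteins, is deleted in the adult epithelium. Only KO mice carried Cre. Effects of losing PRMT1 and of tamoxifen-activated Cre itself therefore cannot be told apart on any day. At day 2 the genes did not differ detectably between KO and WT. Defa24 was measured at 6140, 2631 and 5565 CPM in the KO libraries and at 2622, 3072 and 6671 CPM in the WT libraries. The ranges of the 2 groups overlapped, as they did for all 10 genes. In both groups of day 2 the single libraries differed by more than the group means, and the summed level of the 10 genes ran from 5046 to 11281 CPM in KO and from 4676 to 11959 CPM in WT. The fitted log2 fold changes were 0.21 (Defa24) to 0.55 (Defa20), with a median of 0.40 beside -0.0048 over all tested genes. They rested on single libraries, since with 1 library left out that of Defa24 ran from -0.028 (without WT replicate 1) to 0.74 (without WT replicate 3), that of Defa30 from -0.034 to 0.83 and that of Defa3 from 0.09 to 1.02. With edgeR's quasi-likelihood test, adjusted over all tested genes, 0 of 10 passed, and 0 had an unadjusted p under 0.05. DESeq2 also called 0. Over all genes 0.0328% were called at day 2 in either direction. The 95% confidence intervals reached from -0.78 to 1.52 over the 10 genes.

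At day 7 all 10 genes were lower in KO. Defa24 was measured at 403, 1326 and 1233 CPM in KO and at 4024, 3192 and 4950 CPM in WT. The lowest WT library thus stood above the highest KO library. KO averaged 987 ± 508 CPM (SD, n = 3) against 4055 ± 879 CPM for WT, and the fitted KO level came to 24.3% of WT (log2 fold change -2.04, SE 0.47). The quasi-likelihood test of edgeR gave it an adjusted p of 0.00647.
Defa30, the closest copy of Defa24 in sequence, was measured at 170, 642 and 487 CPM in KO and at 1572, 1306 and 1606 CPM in WT (log2 fold change -1.79). Its groups did not overlap either.
The decrease was of similar size through the family. The largest was that of Defa17 (log2 fold change -2.27, 95% confidence interval -3.42 to -1.11), whose KO libraries were at 18.4, 63.7 and 52.5 CPM and WT libraries at 188, 185 and 275 CPM. The smallest was that of Defa22 (-1.69, -2.68 to -0.70), at 108, 221 and 300 CPM in KO and 598, 448 and 985 CPM in WT. These intervals overlap widely.
The 10 log2 fold changes had a median of -2.01, beside 0.016 over all tested genes, and adjusted p-values were 0.00366 to 0.0203. All 10 genes were called lower, where 10.2% of all tested genes were. In all 10 the KO and WT libraries did not overlap, where 17.7% of all tested genes had all 3 KO libraries below all 3 WT libraries. For a single gene such a separation gives an exact two-sided permutation p of 0.1, the smallest that 3 against 3 libraries allow. Since the tissue was measured in bulk, fewer Paneth cells and less of these mRNAs per Paneth cell cannot be told apart.

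The low end of the KO group at day 7 was set by 1 mouse. KO replicate 1 was the lowest of all 18 libraries for all 10 genes, with 841 CPM summed over them, beside 2550 and 2450 CPM in KO replicates 2 and 3 and 5814 to 9229 CPM in the WT libraries of that day. The other 2 KO libraries were also below every WT library. Without KO replicate 1 the log2 fold changes were -1.36 to -1.87 and 5 of 10 genes (Defa17, Defa20, Defa23, Defa24 and Defa26) passed the test, where 9.43% of the genes tested in that fit passed in either direction. In that library the 9 stem cell markers were also at their lowest sum, 496 CPM, beside 1102 and 1151 CPM in the other 2 KO libraries, the 6 tuft cell markers were at their lowest, 25.4 CPM, beside 54.0 and 60.4 CPM, and the 10 enterocyte markers summed to 20049 CPM, beside 14432 and 12693 CPM.

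**Figure D2:**
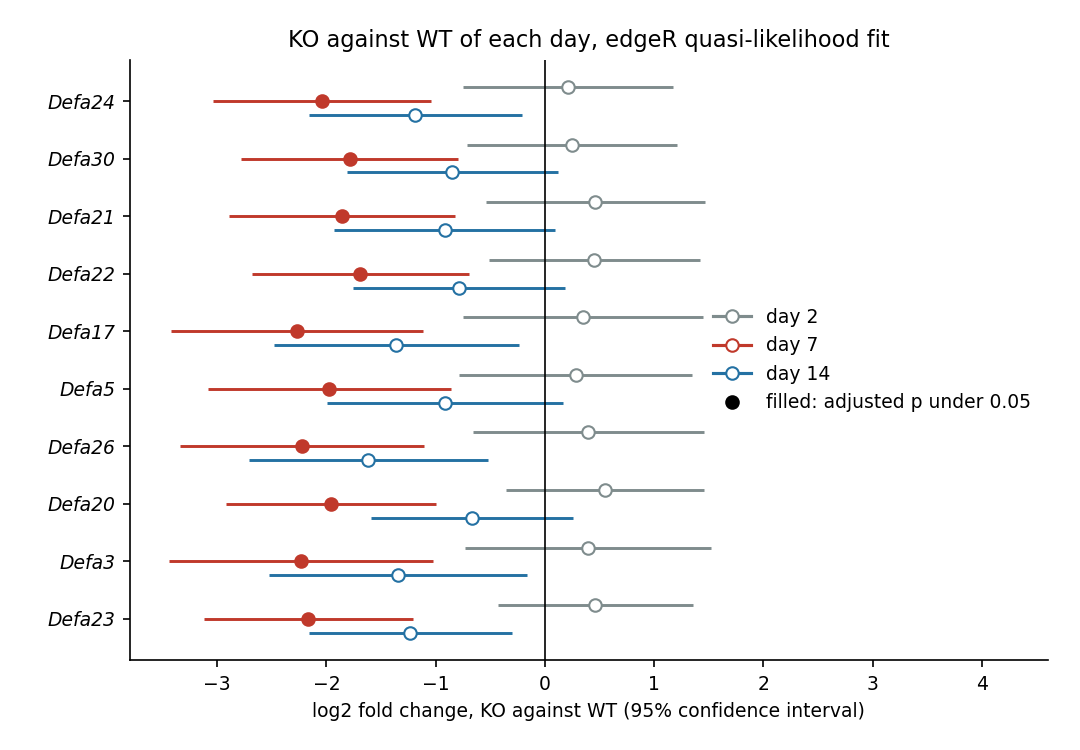
Fitted log2 fold change of KO against WT (points) with its 95% confidence interval (lines) for each alpha-defensin at days 2, 7 and 14; filled points have an adjusted p under 0.05 in edgeR's quasi-likelihood test. The 10 points of day 7 lie between -2.27 and -1.69 and are filled, and those of days 2 and 14 are open.

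At day 14 no gene passed the test, and the fitted fold changes lay between those of days 2 and 7. Defa24 was measured at 2175, 2539 and 1319 CPM in KO and at 6589, 4280 and 2857 CPM in WT. The 3 KO libraries were below the 3 WT libraries, but the closest of them were near each other (2539 and 2857 CPM). Its fitted level in KO was 44.0% of WT (log2 fold change -1.19, 95% confidence interval -2.16 to -0.21, adjusted p = 0.134, edgeR's quasi-likelihood test).
Defa26 had the lowest fold change, -1.62 (SE 0.51, adjusted p = 0.0710 with edgeR), with KO libraries at 25.4, 33.6 and 11.4 CPM and WT libraries at 98.7, 75.9 and 42.1 CPM. Defa20 had the highest, -0.66, with KO libraries at 28.1, 32.9 and 27.8 CPM and WT libraries at 45.2, 51.0 and 44.6 CPM. In both genes the groups did not overlap.
Over the 10 genes the median was -1.05, beside 0.0022 over all tested genes. WT replicate 1 had the highest summed level of that day, 12776 CPM beside 7347 and 5412 CPM in the other WT libraries, and the lowest enterocyte marker sum of all 18 libraries, 3873 CPM. Without it the median was -0.75, with Defa21 going from -0.92 to -0.30 and Defa22 from -0.79 to -0.15, and 0 of 10 were called. With edgeR, 0 of 10 were called lower, where 4.69% of all tested genes were. At an unadjusted p under 0.05 there were 5 (Defa3, Defa17, Defa23, Defa24 and Defa26), where 11.8% of all tested genes were lower by that rule, and DESeq2 called 2, Defa23 and Defa26. With the replicate number as a block within day 14 alone, 1 gene was called, Defa26 (log2 fold change -1.66, adjusted p = 0.0386, edgeR), whereas 0 were called with a block within each day and 0 with a block shared by all days. The groups did not overlap in 9 of 10 genes, where 14.1% of all tested genes were separated in this direction. The exception was Defa22, at 604, 556 and 466 CPM in KO and 1597, 622 and 589 CPM in WT.

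The design also allows the change in effect between days to be tested. The KO effect at day 7 minus that at day 2 was negative in all 10 genes, with a median of -2.41, and 2 genes passed the test, where 3.04% of all tested genes did in that direction. These were Defa23 (-2.63, SE 0.61, adjusted p = 0.0254, edgeR) and Defa20 (-2.51, SE 0.61, adjusted p = 0.0346). Defa23 was measured at 16.04, 10.04 and 11.4 CPM in KO and 5.29, 6.81 and 14.97 CPM in WT at day 2. At day 7 it was at 1.25, 3.86 and 3.62 CPM in KO and 14.4, 11.7 and 13.4 CPM in WT, so that the order of the groups' means was turned. Defa20 went from 71.8, 23.2 and 81.5 CPM in KO and 35.3, 35.1 and 50.1 CPM in WT at day 2 to 5.60, 13.6 and 14.3 CPM in KO and 42.8, 23.6 and 63.6 CPM in WT at day 7. The other 8 genes had adjusted p-values of 0.0546 to 0.0961 with edgeR. All 10 had an unadjusted p under 0.05, where 10.5% of all tested genes did with a negative difference, and DESeq2 called all 10. With the replicate number as a block within each day, 6 were called by edgeR. The share of all tested genes called in that fit, and in those with single libraries left out, is not given here. The number called without a block ranged from 0 to 7 when single libraries were left out. It was 0 without KO replicate 1, WT replicate 1 or WT replicate 2 of day 2 and 0 without KO replicate 1, WT replicate 1 or WT replicate 3 of day 7. It was 7 without KO replicate 2 and 6 without WT replicate 3 of day 2.
The KO effect at day 14 minus that at day 7 was positive in all 10 genes, from 0.61 (Defa26) to 1.29 (Defa20), with a median of 0.92. None of them passed edgeR's test, 0 had an unadjusted p under 0.05 and DESeq2 called 0. Over all tested genes 0% were called. The 95% confidence intervals of the difference reached from -0.92 to 2.61 over the 10 genes.

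Days were also compared within each genotype. In WT mice no change of the 10 genes with time was detected. Day 7 against day 2 gave log2 fold changes of -0.07 to 0.54, day 14 against day 2 gave -0.07 to 0.62 and day 14 against day 7 gave -0.0024 to 0.47. In each of these comparisons 0 of 10 genes were called by edgeR or DESeq2 and 0 had an unadjusted p under 0.05, where edgeR called 0.553%, 1.61% and 0.0796% of all tested genes in either direction. In KO mice all 10 genes were lower at day 7 than at day 2, by log2 fold changes of -2.01 (Defa22) to -2.60 (Defa17) with adjusted p-values of 0.00270 to 0.00963 in edgeR's quasi-likelihood test. Of all tested genes 8.80% were called lower and 16.9% had all KO libraries of day 7 below those of day 2. All 10 alpha-defensins were separated in this way.
From day 2 to day 14 the KO log2 fold changes were -0.64 to -1.55. Of the 10 genes edgeR called 0, where it called 5.75% of all tested genes lower, 8 had an unadjusted p under 0.05, where 14.6% of all tested genes did with a lower level, and DESeq2 called 1. KO replicate 2 of day 2, whose summed level was 5046 CPM beside 11281 and 10583 CPM in the other KO libraries, bore on this count, and without it 5 genes were called. The 5.75% belongs to the fit of all libraries, and the share without that library is not given here. From day 7 to day 14 the KO log2 fold changes were 0.94 to 1.404. Here edgeR called 0 of 10, where it called 0.0468% of all tested genes in either direction, 5 genes (Defa20, Defa21, Defa22, Defa23 and Defa24) had an unadjusted p under 0.05, where 5.59% of all tested genes did with a higher level, and DESeq2 called 0. The same KO libraries enter these comparisons and those with WT.

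The make-up of the family was compared next. By FPKM, Defa24 held 54.7% of the summed level of the 10 genes in WT at day 2, 53.6% at day 7 and 53.5% at day 14, and 52.2%, 49.3% and 47.4% in KO. Defa30 held 18.4% to 22.6% of it as group means. Defa21 held 8.67% to 12.6% and Defa22 8.47% to 13.3%. The other 6 genes made up the rest. When each of the other 9 genes was set against Defa24 within the same library as a log2 ratio, the largest difference between KO and WT means was 0.52 in size, for Defa22 at day 14 (higher in KO) and Defa26 at day 14 (lower in KO, -0.52). Over the 27 comparisons of such ratios, 9 genes on 3 days, the KO and WT libraries did not overlap in 4. Without any difference, 3 against 3 libraries separate in either direction with a probability of 0.1, so a few separations are to be had by chance. The ratio was higher in KO for Defa21 (by 0.20) and Defa22 (by 0.20) at day 2 and for Defa30 (by 0.34) at day 14, and lower for Defa26 at day 14. The exact two-sided permutation p of these 4 was 0.1, the smallest that 3 against 3 allow, so that no ratio could pass the threshold and the test says nothing of whether the make-up differed. These ratios were chosen after the levels had been seen.

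**Figure D3:**
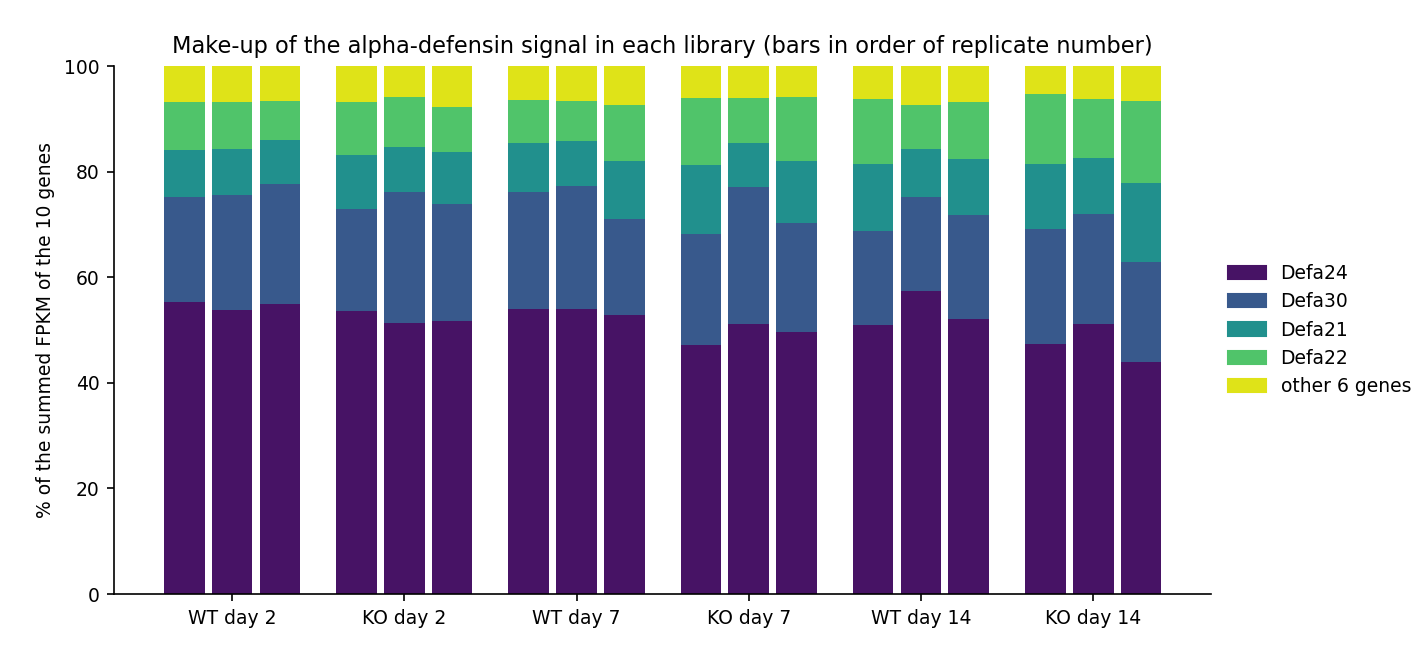
Share of the summed FPKM of the 10 genes held by Defa24, Defa30, Defa21, Defa22 and the other 6 genes together, 1 bar per library, in the 6 groups. Defa24 is the largest part of every bar, in KO and WT and on all 3 days.

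Across the 18 libraries the 10 profiles were alike, as described by Pearson's r of log2 CPM after each group's mean was subtracted. The libraries are shared by all pairs, so r also reflects what is common to a library, and near-identical copies share sequence. Over the 45 pairs of genes r ran from 0.559 (Defa20 with Defa23) to 0.993 (Defa3 with Defa17, of identical coding sequence). Defa21 with Defa22 had 0.991 and Defa24 with Defa30 0.972. The 11 pairs whose coding sequences are at least 95% identical had a median r of 0.951 (0.864 to 0.993), and the 34 others, at 80.9% to 92.9% identity, a median of 0.855 (0.559 to 0.959). Defa20 was in the 4 pairs with the lowest r.

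The genes outside the 10 whose log2 CPM followed their mean profile most closely over the 18 libraries, group differences included, were Gm14851 (r = 0.989), AY761184 (0.987), Ang4 (0.986), Itln1 (0.984), Lyz1 (0.979), Gm15292 (0.977), Defa36 (0.971), Clps (0.968), Samd5 (0.968) and Defa37 (0.968). With group means subtracted r was 0.888 to 0.991 for these 10, the highest that of Ang4, an angiogenin with antimicrobial activity. RefSeq lists Gm14851 as Defa38 and Gm15292 as Defa40. Because they were chosen on the same 18 libraries, for a profile that is low in KO at day 7, their fold changes describe the choice and are no further result. At day 7 all 10 were called lower (10.2% of the tested genes were), at day 2 the count was 0, and at day 14 it was 2 (4.69% of the tested genes), Ang4 (log2 fold change -1.63, adjusted p = 0.0271, edgeR) and Gm15292 (-1.67, adjusted p = 0.0360, edgeR).
Other rows of the family were read as well, and no test compared them with the 10 genes. Over all tested genes 10.2% were called lower at day 7 and 4.69% at day 14. Defa36, Defa37, Gm14851 and Gm15292 were among the genes chosen above for their profile, so their calls are no further result. Of the 21 tested rows whose names begin with Defa, 18 were called lower at day 7, the 3 that were not being Defa32, Defa34 and Defa-ps17, and the log2 fold changes of all 21 were -1.59 to -2.46. At day 14 their median was -0.87 and 1 was called lower, the pseudogene Defa-ps16 (-1.64, adjusted p = 0.0125, edgeR). Of 5 rows with Gm names that RefSeq lists as alpha-defensins, 4 were called lower at day 7 and 2 at day 14, Gm15292 and Gm7861. Several of these rows are near-identical copies too, and their counts carry the same limit.

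Of the 18 genes listed as granule products and markers of Paneth cells, 13 were called lower in KO at day 7 (median log2 fold change -1.45), beside 10.2% of the tested genes, and 3 at day 14 (median -0.79), beside 4.69%, with 0 called higher. Lyz1, the lysozyme of Paneth cells, was measured at 751, 1796 and 1678 CPM in KO and 4443, 3543 and 6695 CPM in WT at day 7 (log2 fold change -1.80, adjusted p = 0.00303, edgeR). Its groups did not overlap. Mmp7, which activates the precursors, was at 33.9, 77.6 and 101.8 CPM in KO and 212, 216 and 295 CPM in WT (-1.76, adjusted p = 0.00693, edgeR). At day 14 neither passed (Lyz1 -0.92, adjusted p = 0.1503; Mmp7 -1.19, adjusted p = 0.0816, edgeR). The lowest log2 fold changes of the list at day 7 were those of the pentraxin Mptx1 (-2.96), at a level of 1.08 CPM in WT, and of the colipase Clps (-2.23). Mptx1 was also called at day 14 (-2.37, adjusted p = 0.00219, edgeR), with Mptx2 (-1.999) and Ang4.
The Reg3 lectins, antimicrobial proteins made by several epithelial cell types, were in this list and did not pass the test on either day. At day 7 the log2 fold changes were -0.91 for Reg3a, -0.76 for Reg3b and -1.12 for Reg3g. Nupr1 (0.26) and Dll4 (0.04) did not pass either.

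**Figure D4:**
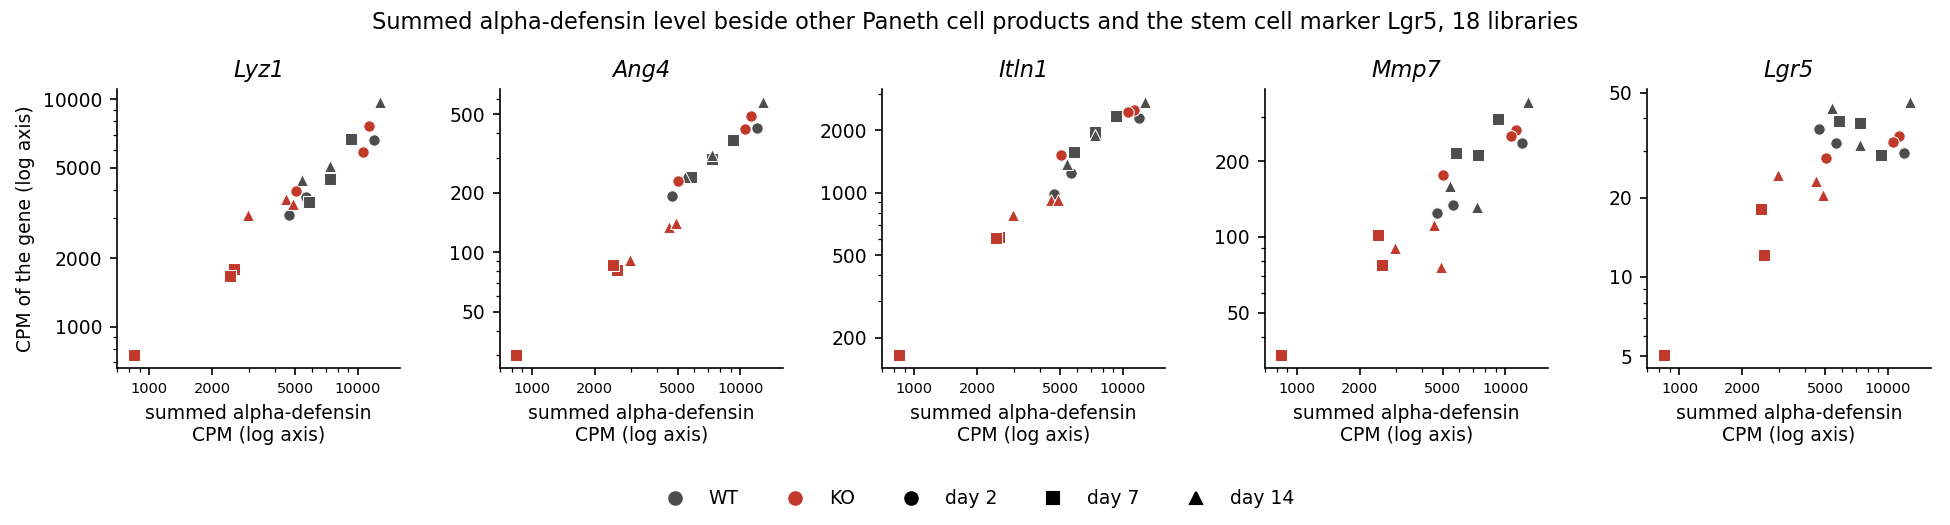
CPM of Lyz1, Ang4, Itln1, Mmp7 and the stem cell marker Lgr5 against the summed CPM of the 10 alpha-defensins (both log axes), 1 point per library; colour gives the genotype and the symbol the day. The 3 KO libraries of day 7 are the lowest for Lyz1, Ang4 and Itln1, and 1 of them, at 841 CPM of alpha-defensins, is lowest in all 5 panels.

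Of 14 genes that regulate Paneth cell fate or belong to the Wnt pathway, on which Paneth cell maturation depends, 3 were called lower at day 7 (median of all 14 -0.32), beside 10.2% of the tested genes. At day 14 the count was 0 (median -0.0030), beside 4.69%, and 4 had an unadjusted p under 0.05 in either direction, beside 4607 of the 21349 tested genes. Those called at day 7 were the transcription factor Sox9 (-0.73, adjusted p = 0.00367, edgeR), needed for Paneth cells to form, the Wnt target Rnf43 (-0.78) and Mex3a (-0.85). Beta-catenin (Ctnnb1, -0.05), its partner Tcf7l2 (0.18), the receptor Fzd5 (0.16) and the secretory lineage factors Atoh1 (0.24), Spdef (0.41) and Gfi1 (-0.03) did not pass at day 7. Their fold changes were smaller than those of each alpha-defensin, but the differences between genes were not tested.
Of 14 genes for folding, granule formation and release of secretory proteins, 0 were called lower by edgeR at day 7, with 1 at an unadjusted p under 0.05 in either direction, and 0 at day 14, with 3. Their sums at day 7 were higher in KO without overlap, at 1745 to 2348 CPM against 1527 to 1722 CPM in WT. At day 14 they overlapped, at 1534 to 1666 CPM in KO and 1237 to 1705 CPM in WT. A single gene was called higher on each day, the chaperone Hspa5 (BiP) at day 7 (0.58, adjusted p = 0.0406, edgeR) and Ern2 (IRE1 beta) at day 14 (0.67, adjusted p = 0.0253). Over all tested genes 7.11% were called higher at day 7 and 3.23% at day 14. Xbp1, which secretory cells need for their endoplasmic reticulum, was at -0.08 and Agr2, a disulfide isomerase, at 0.17 at day 7.

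Markers of other crypt cells were read as well, and their part in the alpha-defensin result was not tested. Their counts stand beside 10.2% of all genes called lower and 7.11% called higher at day 7, and 4.69% and 3.23% at day 14, and with 6 to 10 genes in a list 1 or 2 calls are near these shares. Of 9 stem cell markers 7 were called lower at day 7 and 2 at day 14. Their sum was 496 to 1151 CPM in KO and 1803 to 2433 CPM in WT at day 7, and 1654 to 1942 against 2236 to 2427 CPM at day 14. Lgr5, the defining marker, was at 5.07, 12.1 and 18.2 CPM in KO and 38.3, 39.0 and 29.0 CPM in WT at day 7 (log2 fold change -1.59, adjusted p = 0.00131, edgeR) and at -0.83 at day 14 (adjusted p = 0.0873). Tnfrsf19 had the next lowest log2 fold change at day 7 (-1.45).
All 10 enteroendocrine markers were called higher at both days, with log2 fold changes of 0.80 to 1.85 at day 7 and 0.98 to 2.18 at day 14. Tph1, the enzyme that makes the precursor of serotonin, was highest on both days, while the granule protein Chga was at 1.03 at day 7 and 1.78 at day 14. Their sum was 725 to 904 CPM in KO and 329 to 346 CPM in WT at day 7. Of 9 goblet cell markers 1 was higher (Klk1, 0.45) and 3 lower at day 7 (among them Spink4, -0.93, and Fcgbp, -0.82), with sums of 10321 to 13517 CPM in KO and 13585 to 15988 CPM in WT that did not overlap. At day 14 the goblet sums were 10617 to 12574 CPM in KO and 12867 to 13183 CPM in WT, again without overlap, while Klk1 was called higher (0.87). Fcgbp was the most abundant of these markers, at a mean of 7259 CPM over the 18 libraries, and weighs most in the sums. Of 10 enterocyte markers 2 were higher (Fabp1, 1.55, and Fabp2, 1.22) and 1 lower (Lct, -1.42), with sums of 12693 to 20049 CPM in KO and 7871 to 11024 CPM in WT that did not overlap. Of 6 tested tuft cell markers 1 was lower (Dclk1, -1.04), with sums of 25.4 to 60.4 CPM in KO and 67.4 to 78.1 CPM in WT that did not overlap either. Of 8 stromal markers 2 were higher (Pecam1, 1.29, and Vim, 1.08), at sums of 46.7 to 92.8 CPM in KO and 25.9 to 62.8 CPM in WT. Of 10 immune cell markers 0 were called by edgeR at day 7 or 14, and 0 had an unadjusted p under 0.05.
Alpha-defensins also differ along the intestine, so markers of its ends were read. Of 8 tested proximal markers 3 were higher and 2 lower at day 7 (Cyp26b1, 1.601, and Onecut2, -0.67, among them), with sums of 2001 to 3360 CPM in KO and 1409 to 1936 CPM in WT that did not overlap. Fabp1 and Lct, called in opposite directions, are in this list and in the enterocyte list, so the 2 sums share genes. Of 7 distal markers 2 were higher (Pyy, 2.48, also an enteroendocrine hormone, and Bcl2l15, 0.79), with sums of 229.1 to 525.3 CPM in KO and 188.9 to 279.7 CPM in WT. At day 14 the distal list went both ways, with Fgf15 lower (-1.70) and Pyy higher (1.98). Its sums overlapped that day, at 224 to 386 CPM in KO and 201 to 362 CPM in WT. The proximal marker Cyp26b1 was higher at day 14 (3.88), at means of 0.570 CPM in KO and 0.0406 CPM in WT. The proximal sums overlapped too, at 1591 to 2984 CPM in KO and 730 to 2293 CPM in WT. Markers of the pancreas, which also makes Clps, summed to 2.71 to 8.70 CPM over its 4 tested genes in all groups. At day 7 their sums were 2.71 to 3.41 CPM in KO and 4.28 to 5.61 CPM in WT and did not overlap. By edgeR 0 of the 4 were called at day 7, with 1 at an unadjusted p under 0.05, and 0 at day 14, with 0 at that p.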

How the data were processed

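Total RNA (ribosomal RNA removed) from crypts of 18 mice was sequenced as paired reads of 100 bases. Per the file headers and the methods, the authors aligned reads to mm10 with STAR 2.7.3 and made the deposited counts per gene with featureCounts 1.6.4, without strand and without fragments that align to several places. The annotation is GENCODE M23 in the file header, whereas the methods name M26. HTSeq is also named in the submitters' processing notes. Reads of near-identical copies are lost in this way, and antisense transcripts cannot be told apart.

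Counts were tested with edgeR 4.0.16 (robust quasi-likelihood, TMM, R 4.3.3) in 1 model of 18 libraries with 1 mean for each of 6 groups, after filterByExpr left 21349 genes, with Benjamini-Hochberg adjustment over all of them at 0.05. The 20 genes that the study lists as differing between male and female mice were left out. The mice are separate animals. CPM used TMM-scaled library sizes, and FPKM was CPM over gene length. Depth was 12844642 to 31493484 counts, and the members had counts of at least 28. Unless stated, p-values are two-sided. DESeq2 1.42.0, other normalizations, filters and models, a replicate block and the removal of single libraries were alternatives. Scripts were tested on simulated data. Sequences came from GENCODE M21 transcripts and RefSeq tables with Biopython 1.88.

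The members and the 13 gene lists were chosen with earlier results of these data known. Genes outside the 10 were named where they were the 10 most alike in profile, or the up to 2 per list and direction with the largest change among those called with separated groups, with Lyz1, Mmp7 and Lgr5 always. Mptx2, Ang4 at day 14, Sox9, the Reg3 genes, Nupr1, Dll4, Ctnnb1, Tcf7l2, Fzd5, Atoh1, Spdef, Gfi1, Xbp1, Agr2, the other Defa rows and the Gm rows were named after their values were seen. The authors' own comparisons were not used.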

Additional observations from a re-analysis of the deposited data

Results flagged for a closer look

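The KO effect differed between day 7 and day 2 for 2 of the 10 genes by edgeR's test of the difference itself, where 3.04% of all tested genes passed with a negative difference. The median difference of all 10 was -2.41, and DESeq2 called all 10. Whether these 2 genes differ from the rest of the 10 was not tested. For Defa23 the difference of the log2 fold changes was -2.63 (adjusted p = 0.0254). Under the 9 other settings its adjusted p was 0.000332 to 0.0626 and 8 passed, and with 1 library left out it was 0.00717 to 0.0614 and 6 of 12 passed. For Defa20 the difference was -2.51 (adjusted p = 0.0346). Under the 9 other settings its adjusted p was 0.00422 to 0.0848 and 6 passed, and with 1 library left out it was 0.00566 to 0.0883 and 4 of 12 passed. Of the 100-base windows of their transcripts, 89.1% and 99.7% also occur in another gene. Single libraries were not tested for standing apart, since each group has 3.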

How the results depend on the processing

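The calls at day 7 and those of KO day 7 against KO day 2 numbered 10 under other normalizations, models and DESeq2, except that with no filter Defa22 (adjusted p = 0.0612) and Defa30 (0.0501) were no longer called at day 7. The number of members called at day 7 ranged from 5 to 10 when single libraries were left out, with 5 without KO replicate 1, 7 without WT replicate 3 (Defa5, Defa21 and Defa22 lost) and 9 without KO replicate 2 (Defa22 lost). At day 14 the count of 0 became 1 with a mean count of at least 50 (Defa26, adjusted p = 0.0480), 1 in a model of only the groups compared (Defa20, adjusted p = 0.0115) and 2 with DESeq2. For the day 7 minus day 2 difference the count of 2 became 0 with no filter, 7 with a mean count of at least 50, 1 in the model of only the groups compared and 10 with DESeq2, and ranged from 0 to 7 with single libraries left out. For KO day 14 against KO day 2 the count of 0 became 3 in the model of only the groups compared and 1 with DESeq2, and ranged from 0 to 5 with single libraries left out. The fold change of Defa24 at day 2 was -0.0067 without KO replicate 1, and over single libraries left out it ranged from -0.028 to 0.74. That of Defa30 ranged from -0.034 to 0.83, both lowest without WT replicate 1. The cause of these changes was not tested. The share of all tested genes called in each of these fits is not given here. The counts of members therefore do not show whether calls changed for all genes alike. Same-numbered mice of 1 day had r of -0.159 to 0.381 over 9 pairs, 6 over 0.1, so replicate numbers were not taken as pairs over the series. At day 14, however, the 3 same-numbered pairs had r of 0.159 to 0.227 and the 6 others -0.154 to -0.0363, a hint of pairing from the data that no label states. Blocks within days were therefore added after seeing the data. A replicate block within day 14 gave 1 member at day 14 (Defa26), and a replicate block within each day gave 10 at day 7, 0 at day 14 and 6 for the day 7 minus day 2 difference. With a replicate block shared by all days 10 members were called at day 7, 0 at day 14 and 2 for the day 7 minus day 2 difference, and no count of members changed, while the number of all genes called went from 118 to 19 for WT day 7 against WT day 2, from 343 to 173 for WT day 14 against WT day 2, from 17 to 5 for WT day 14 against WT day 7, from 10 to 5 for KO day 14 against KO day 7 and from 7 to 3 for KO against WT at day 2. Standard errors were alike on the 3 days (0.42 to 0.52 at day 2, 0.45 to 0.56 at day 7, 0.43 to 0.55 at day 14), and the fold changes at days 2 and 14 were smaller.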
